A study of Homo sapiens with 4 samples.

Results

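The small structured RNAs made by RNA polymerase III (Pol III) other than 7SL were examined in the RNA of PC3-EVs, the extracellular vesicles shed by the PC3 prostate cancer (PCa) cell line. They were 10 genes, chosen by name: RN7SK, RMRP, RPPH1, VTRNA1-1, VTRNA1-2, VTRNA1-3, RNY1, RNY3, RNY4 and RNY5. Of these, 9 were matched by Ensembl identifier among the 58051 genes of the total RNA count tables. RNY5 is in the list by name, but no identifier was matched to it here, so its count was not analysed here. No read was counted on any of the 9 matched genes in either replicate.

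The study asked which RNAs PCa EVs carry to bone cells, and PC3 is a line grown from a bone metastasis. Per the paper's methods, vesicles were collected from cells in medium with exosome-free serum. They were isolated with a vesicle kit (exoEasy) and gravity flow chromatography. Vesicles of unmodified PC3 cells gave 2 total RNA libraries made with a stranded kit and 2 small RNA libraries. Each assay covers this 1 condition, so the values describe 2 libraries side by side and no test between conditions applies. The title of total RNA replicate 2 carries the label EX1, as that of replicate 1 does, while its description carries EX2. The labels do not say what EX1 and EX2 stand for. Whether the 2 total RNA libraries are separate preparations is thus not certain from the labels. The vesicles come from a single cell line, and no RNA of the cells themselves was analysed here.

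Pol III makes short RNAs that are not translated, and it stops at a run of T in the gene. 7SK RNA holds the elongation factor P-TEFb inactive in the nucleus, RMRP and RPPH1 are the RNA parts of the ribonucleases MRP and P, vault RNAs belong to the vault particle, and Y RNAs bind the Ro60 and La proteins. Vault and Y RNAs, and fragments of Y RNAs, are known from vesicle RNA of other cells.

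The sequences of the 3 vault RNAs and of RNY1, RNY4 and RNY5 are shown because they carry the features that the families share. They were read from GRCh38 by the GENCODE release 44 coordinates, and that of RNY5 by RefSeq's. VTRNA1-1 lies at chr5:140711275-140711373, VTRNA1-2 at chr5:140718925-140719013 and VTRNA1-3 at chr5:140726158-140726246, all on the plus strand. RNY5 lies at chr7:148941488-148941571 and RNY4 at chr7:148963315-148963410 on the plus strand, and RNY1 at chr7:148987136-148987248 on the minus strand. Each gene is a single exon. Capitals mark the core of the B box, the inner promoter element that Pol III genes of this type carry, searched as GTTCGANNC, and a run of 3 or more T at the 3′ end.
VTRNA1-1: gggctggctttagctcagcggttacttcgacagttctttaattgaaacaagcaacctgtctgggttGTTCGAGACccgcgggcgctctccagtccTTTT
VTRNA1-2: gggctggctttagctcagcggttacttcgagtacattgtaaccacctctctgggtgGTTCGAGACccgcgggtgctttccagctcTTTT
VTRNA1-3: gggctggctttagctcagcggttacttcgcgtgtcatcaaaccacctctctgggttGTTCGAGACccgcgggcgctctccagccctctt
RNY1: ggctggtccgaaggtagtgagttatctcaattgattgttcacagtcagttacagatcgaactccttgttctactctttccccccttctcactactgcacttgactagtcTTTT
RNY4: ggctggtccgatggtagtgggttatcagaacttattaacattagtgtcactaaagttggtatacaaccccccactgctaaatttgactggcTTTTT
RNY5: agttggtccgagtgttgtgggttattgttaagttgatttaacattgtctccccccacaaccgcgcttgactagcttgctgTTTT

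The B box core was found in all 3 vault RNAs, from base 67 of VTRNA1-1 and from base 57 of the other two, and in none of the other members. On the sense strand, the only strand searched, it was found in 34 of 5182 small RNA genes of 80 to 350 bases (0.656%). A run of 4 or 5 T closed 6 of the 10 sequences, those of VTRNA1-1, VTRNA1-2 and the Y RNAs, and VTRNA1-3 ended in 2. RN7SK ended in 1 T, with 3 more just after its annotated end. RMRP ended in 0 with 1 after it, and RPPH1 in 0 with 0 after it. The vault RNAs were alike at 89.8% to 94.3% of aligned bases. The Y RNAs were less alike, from 73.4% between RNY4 and RNY5 to 85.7% between RNY3 and RNY5. RNY1 and RNY4 share their first bases and end in a stretch that can pair with them, the stem of a Y RNA.

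The depth of the libraries sets what a count of 0 can say. Replicate 1 held 19563744 reads and replicate 2 held 22042233, and 489170 and 475942 of them were counted on genes. A count of 0 allows a share of up to 3 reads, which is 0.000613% and 0.000630% of the reads on genes. Per 1000000 reads on genes (CPM), the limits are 6.13 and 6.30. The 95% Wilson interval of a share of 0 reaches 0.000785% and 0.000807%. These limits cover counting error only, since amplified reads are not independent molecules, and they apply to reads that the authors' counting kept.

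RN7SK is the gene of 7SK RNA (ENSG00000283293, chr6:52995621-52995948, plus strand, 328 bases). It had 0 reads in replicate 1 and 0 in replicate 2. RMRP (ENSG00000277027, chr9:35657754-35658017, minus strand, 264 bases) also had 0 and 0 reads, as did RPPH1 (ENSG00000277209, chr14:20343075-20343407, minus strand, 333 bases). These are the longest of the members, and per kilobase their limits were lowest, 18.4 CPM per kilobase for RPPH1 and 23.2 for RMRP in replicate 1. RN7SK and RPPH1 lie wholly under another gene on their strand. Their limits hold only for reads that were not set aside as fitting 2 genes.

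VTRNA1-1 (ENSG00000199990), usually the most abundant vault RNA in cells, had 0 and 0 reads. VTRNA1-2 (ENSG00000202111) and VTRNA1-3 (ENSG00000202515) had 0 and 0 reads each. The same was true of RNY1 (ENSG00000201098), RNY3 (ENSG00000202354) and RNY4 (ENSG00000252316). With 89 to 113 bases these genes are short, so a limit of 3 reads stands for 54.3 to 68.9 CPM per kilobase in replicate 1. No order of the members, no fold between the replicates and no mean with an SD above 0 can be given, because all of them are at 0.

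The count of 0 of 9 was read against how often genes of the tables had a read in both replicates. That share was 9.63% over all genes of the tables. It was 1.04% over the 2211 genes annotated as misc_RNA, the class of the 6 vault and Y RNAs matched, with 23 called. It was 0.714% over the 5182 small RNA genes of 80 to 350 bases, with 37 called. The 23 and the 37 called both include 11 genes of 7SL RNA, 5 copies of 7SK and 1 copy of Y RNA. Many of the misc_RNA and small RNA genes are annotated copies, as of 7SK (299 in all) and Y RNA (809 in all), so these are not shares of named genes alone. The count of 0 is near these background shares and is no result about the members.

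Length moved with detection among the small RNA genes. Of 2913 genes of 80 to 120 bases, the class that holds the 6 matched vault and Y RNAs, 3 had a read in both replicates (0.103%). Of 1025 genes of 121 to 200 bases there were 15 (1.46%). Of 1244 genes of 201 to 350 bases, the class of RN7SK, RMRP and RPPH1, there were 19 (1.53%). Those 19 include the 11 genes of 7SL RNA with a read in both. The part of fragment size in the counts of the members was not tested.

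**Figure D1:**
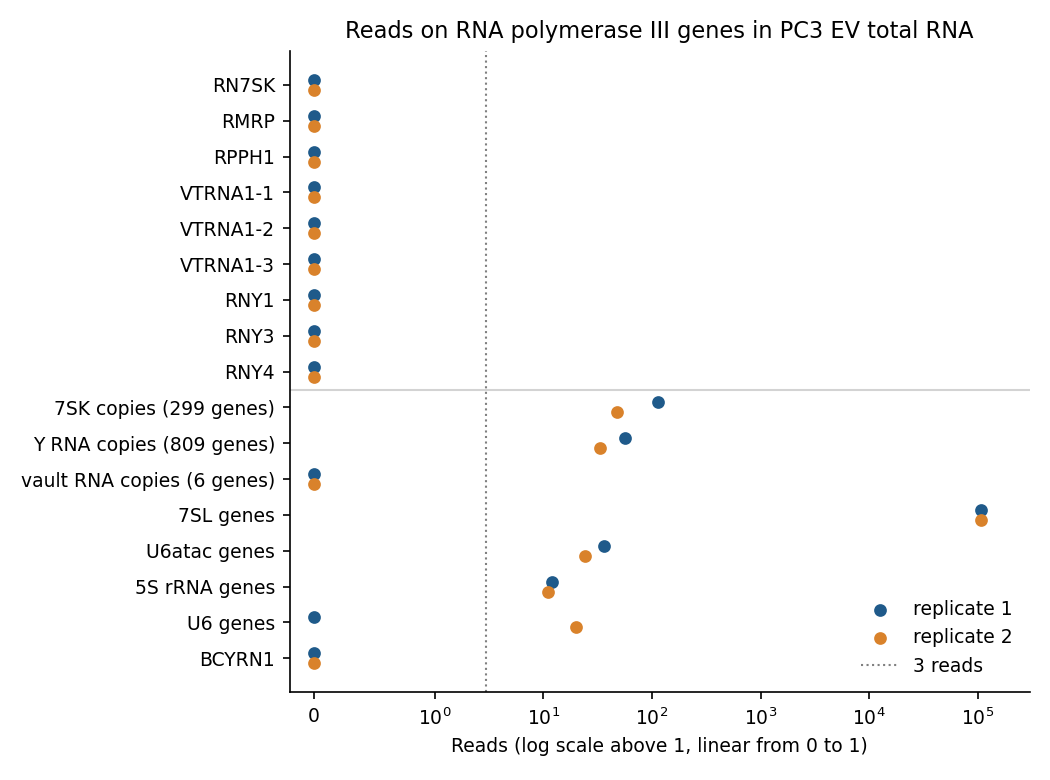
Reads on the 9 matched genes, on their annotated copies and on other Pol III gene classes in both total RNA replicates (points), on an axis that is linear from 0 to 1 read and logarithmic above. All members sit at 0 in both replicates, left of the dotted line at 3 reads, while the 7SL genes hold 107870 and 107536 reads.

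Other Pol III genes gave a scale for these zeros. The 680 genes of 7SL RNA, the RNA of the signal recognition particle, held 107870 reads in replicate 1 and 107536 in replicate 2, or 22.1% and 22.6% of all gene counts, and 11 of them had a read in both. Within that family RN7SL1 had 0 and 0 reads, RN7SL2 had 83154 and 69876, and RN7SL3 had 23251 and 36549. The other classes were low. The 42 U6atac genes held 36 and 24 reads, all on RNU6ATAC, a splicing RNA of the minor spliceosome, and the 522 genes of 5S ribosomal RNA held 12 and 11. The 1309 genes of U6, the splicing RNA that Pol III makes, had 0 reads in replicate 1 and 20 in replicate 2. BCYRN1, a brain cytoplasmic RNA, had 0 and 0 reads.

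Whether a read from a member could have been counted there depends on the annotation, the strand setting and how often its sequence recurs. Reads that fell on no annotated gene made up 36.3% and 35.4% of all reads. The strand setting of the counting is not given in the sources used here. The part of these reads in the zeros was not tested. RN7SK lies wholly inside a second identifier on the same strand, named 7SK (ENSG00000202198, chr6:52995620-52995950), which itself had 0 and 0 reads. RPPH1 lies wholly inside the long non-coding RNA gene ENSG00000259001 (chr14:20343048-20343685, minus strand), which also had 0 and 0 reads. The other 7 matched members share no exon base with another gene on their strand, and none of the 9 has an exon of another gene opposite to it.

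A read that fits 2 genes can be set aside as ambiguous, and the tables put 0.607% and 0.683% of all reads in that class. Over all genes matched to the annotation, 920 had every exon base under exons of another gene on the same strand, and 9 of them (0.978%) had a read in both replicates, against 9.89% of the other 56028. Among the small RNA genes alone the order was the other way round, 5 of 318 (1.57%) against 32 of 4864 (0.658%). The counting mode and the annotation release are not given in the sources used here, and the part of the overlap in the zeros of RN7SK and RPPH1 was not tested.

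**Figure D2:**
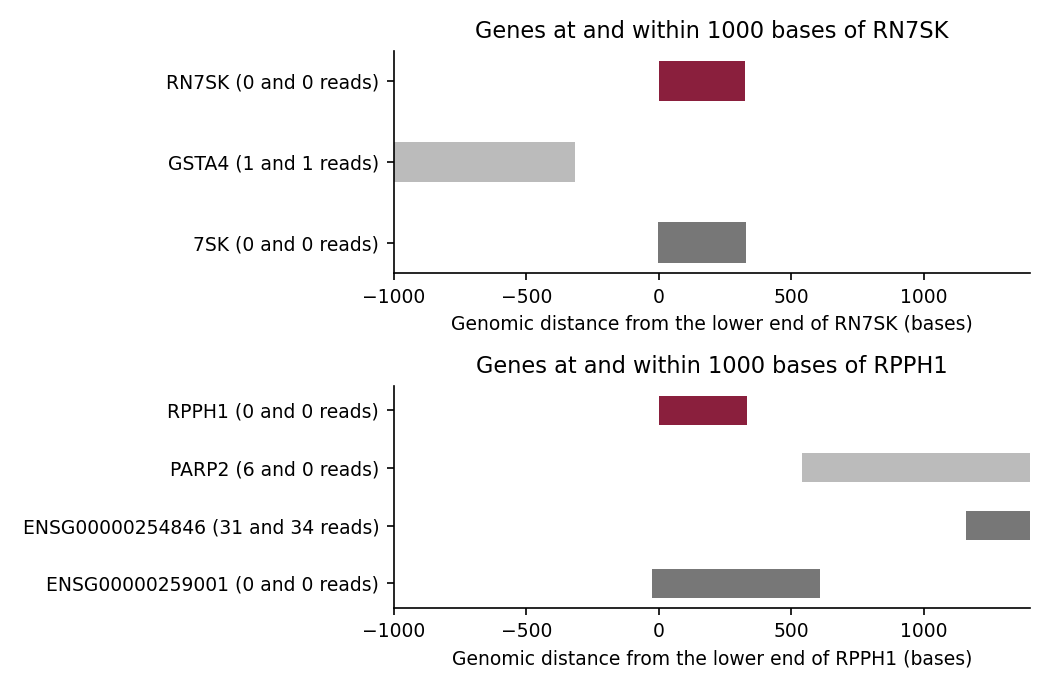
Genes at and within 1000 bases of RN7SK (top) and RPPH1 (bottom), drawn by genomic distance in bases from the lower end of the member, with the member in red, genes on its strand in dark grey and genes on the other strand in light grey; bars that reach the panel's edge go on beyond it. Labels give reads in replicates 1 and 2, and both members lie wholly under a second gene that also has 0 reads.

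Genes next to the members had few reads. ARHGEF39, a guanine nucleotide exchange factor that ends 857 bases from RMRP on the same strand, had 20 and 81 reads. CCDC107, 272 bases away on the other strand, had 0 and 1. Beside RPPH1, the lncRNA gene ENSG00000254846, 825 bases away on the same strand, had 31 and 34 reads, and PARP2, a DNA repair enzyme that starts 207 bases away in the other direction, had 6 and 0. GSTA4, a glutathione transferase 316 bases from RN7SK, had 1 and 1, and GHET1, 278 bases from RNY1, had 0 and 0. The 3 vault RNA genes, RNY3 and RNY4 have no counted neighbour within 1000 bases.

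Reads that align to several places were not counted on genes, and they made up 45.5% and 48.1% of all reads. To see which members this touches, every 75-base window of each member was searched for in the chromosomes of GRCh38 on both strands. In RMRP, RPPH1, the 3 vault RNAs, RNY1, RNY4 and RNY5, every window occurred once. In RN7SK 92 of 254 windows (36.2%) occurred once, and in RNY3 10 of 28 (35.7%), and no window of either occurred at more than 4 places. The read length after trimming is not given in the sources used here, and shorter windows would recur more often. The first 300 of the 328 bases of RN7SK are shown with the bases in capitals that lie in at least 1 window found once.
RN7SK: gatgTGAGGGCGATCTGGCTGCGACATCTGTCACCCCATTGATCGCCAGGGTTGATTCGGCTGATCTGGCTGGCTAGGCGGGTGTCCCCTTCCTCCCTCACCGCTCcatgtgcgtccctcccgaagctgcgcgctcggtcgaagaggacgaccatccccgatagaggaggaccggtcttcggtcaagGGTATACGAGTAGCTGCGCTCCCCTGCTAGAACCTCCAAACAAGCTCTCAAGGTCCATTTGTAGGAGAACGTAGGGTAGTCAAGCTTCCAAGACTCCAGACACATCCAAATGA

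In capitals stand a 5′ block and a 3′ block, with the middle of the RNA in lower case between them, and 243 of the 328 bases lie in such a window. Near copies, here stretches of at least 80% identity over at least 80% of the gene, were counted as well. RMRP and RPPH1 had 0, the vault RNAs 1 or 2 each and RN7SK 15, of which 4 were at 90% identity or more. The Y RNAs differed widely, with 378 near copies of RNY3, 316 of RNY1, 115 of RNY4 and 10 of RNY5. Since all 9 matched genes had 0 reads, the part of copies in the zeros was not tested.

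**Figure D3:**
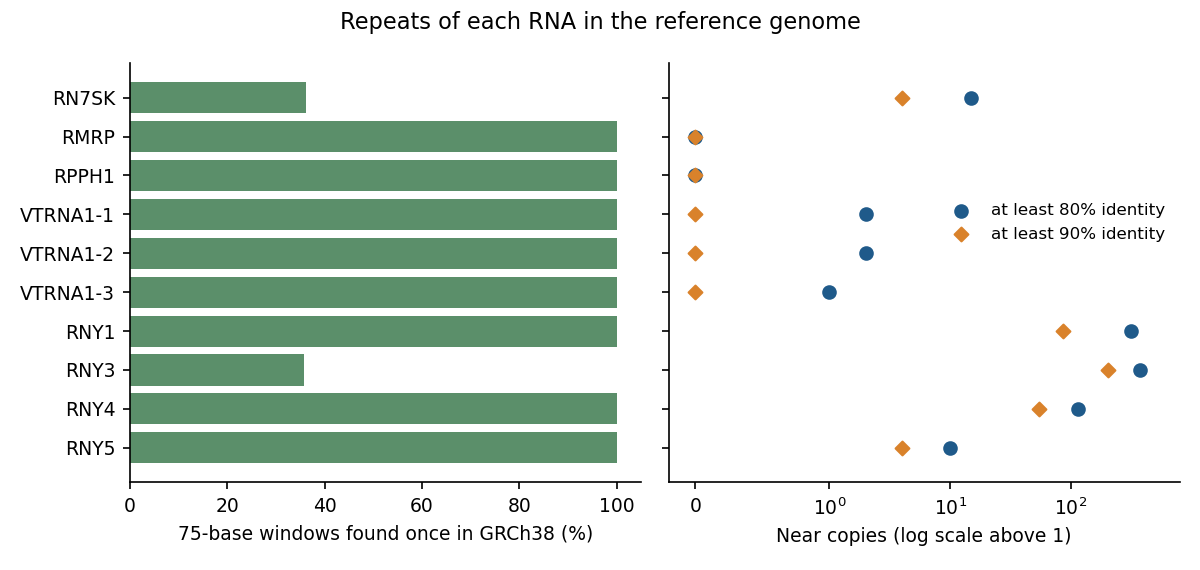
For each of the 10 RNAs, the percentage of its 75-base windows found once in GRCh38 (left, bars) and the number of near copies at 80% or 90% identity or more (right, points, on an axis that is logarithmic above 1). RN7SK and RNY3 stand at 36.2% and 35.7% while the other 8 are at 100%, and the Y RNAs RNY1 and RNY3 have over 300 near copies.

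Some annotated copies of 7SK and Y RNA, unlike the named genes, had reads. The 299 copies of 7SK held 114 and 48 reads, a mean of 167 CPM ± 93.5 (SD, n = 2), against 0 on RN7SK. Of these copies, 11 had a read in either replicate, for which no background share was taken. In both, 5 had a read (1.67%, beside the 1.04% of all misc_RNA genes, which include these 5). RN7SKP203 (chr2:76445079-76445410, minus strand) led with 62 and 33 reads, and it matches RN7SK at 92.6% of bases over 94.2% of its length. RN7SKP23 had 28 and 0 reads, on a gene model of chromosome 16 that runs well past the copy (chr16:23412380-23416680). RN7SKP80 had 12 and 2 reads and is 95.7% identical over 84.8% of RN7SK. The median identity was 90.3% for the 7SK copies with reads and 83.3% for all of them, given as a description. These 3 copies had more reads in replicate 1, and most of the family's reads in each replicate were on RN7SKP203.

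The 809 copies of Y RNA held 57 and 33 reads, 92.9 CPM ± 33.4 (SD, n = 2), against 0 on RNY1, RNY3 and RNY4 together. Of these, 10 had a read in either replicate, again without a background share. In both, 1 had a read (0.124%, beside 1.04% of misc_RNA genes and 0.103% of small RNA genes of 80 to 120 bases). That copy (ENSG00000222224, chr2:28927243-28927340, minus strand) is closest to RNY4 at 85.4% identity and had 6 and 14 reads. The next by reads, ENSG00000200847 (chr7:23491792-23491893, minus strand), is 94.9% identical to RNY3 over its aligned bases and had 16 and 0. ENSG00000207480 (chr4:88330176-88330278, minus strand), 88.2% identical to RNY3, had 14 and 0. The last 2 thus had all their reads in 1 library. The median identity was 88.7% for the Y RNA copies with reads and 89.0% for all of them, again as a description. By this measure the Y RNA copies with reads were not closer to the named genes. The 6 copies of vault RNA, the 1 copy of RMRP and the 2 copies of RPPH1 had 0 reads in both replicates. Reads on a copy cannot be traced to the copy, to its host transcript or to a named gene with sequence differences from these counts.

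**Figure D4:**
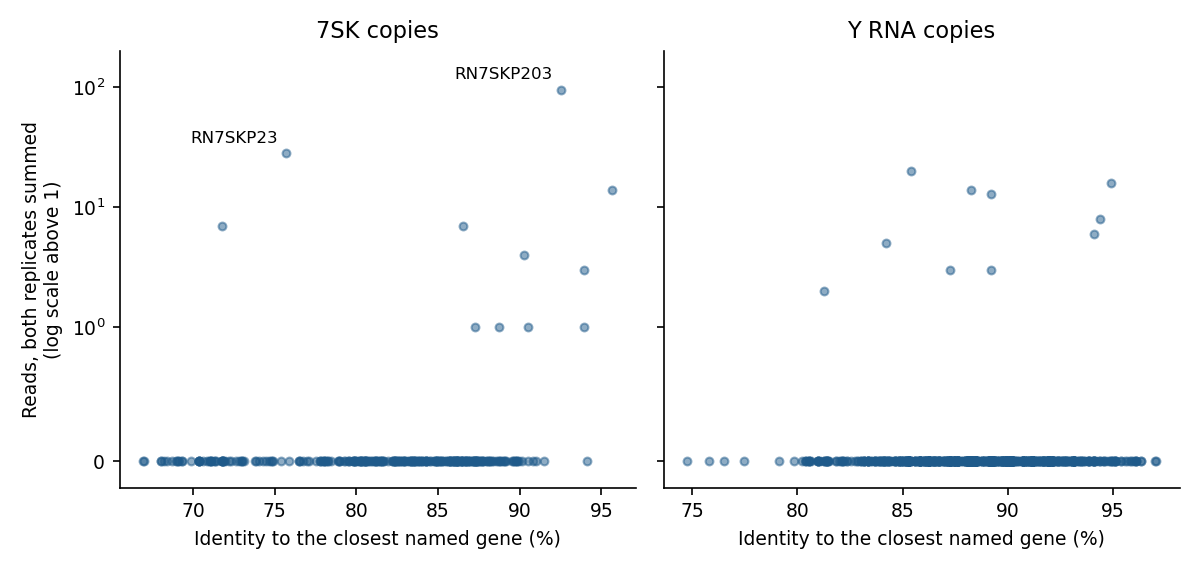
Reads summed over both replicates (vertical, logarithmic above 1) against percent identity to the closest named gene (horizontal) for each annotated copy of 7SK (left, 299 genes) and Y RNA (right, 809 genes). Of the copies, 11 of 7SK and 10 of Y RNA lie above 0, and RN7SKP203 is highest with 62 and 33 reads.

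The small RNA libraries were counted on mature miRNA names only, so a fragment of a member could appear there only under such a name. Of 2588 names, 2281 had a mature sequence in RefSeq, and these were compared with the members. None shared 16 or more bases in a row with a member, and 3 did with an annotated copy. The only one of these with more than 1 read was miR-4301, with 17 bases in common with a Y RNA copy in the sense direction and counts of 236 and 137. Both count columns of the small RNA table carry the same name, so they cannot be tied to a replicate number, and the first column is given first.

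With up to 2 edits allowed over the whole mature sequence, a search added after the data were seen, 2 names matched a member on the same strand and 0 on the other. Both matched the 5′ end of a Y RNA, from its base 1. These were miR-3135b, over the first 22 bases of RNY3, and miR-6131, over the first 19 bases of RNY4. The second pair is shown, with the seed (bases 2 to 8) in capitals in the miRNA and the differing bases in capitals in the Y RNA.
miR-6131: gGCUGGUCagaugggagug
RNY4, bases 1 to 19: ggctggtcCgatggTagtg

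Counted from base 1 of each RNA, with the base of the Y RNA first, miR-6131 differs from RNY4 by C9A and T15G. miR-3135b was abundant, with 6751 and 4855 reads, or 4.38% and 4.29% of miRNA counts (4.33% ± 0.0630, SD, n = 2), and it ranked 5 in both. miR-6131 had 94 and 87 reads, or 0.0689% ± 0.0112 (SD, n = 2), and ranked 63 and 48.

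These matches are not particular to the named Y RNA genes. The sequence of miR-3135b occurs exactly at 2 places in the chromosomes of GRCh38, at 33 with 1 substitution and at 246 with 2, and 9 of the 809 Y RNA copies come within 2 edits. That of miR-6131 occurs exactly at 1 place, at 6 with 1 substitution and at 69 with 2, and 15 of the copies come within 2 edits. No copy came within 1 edit of either, and the 3 named 7SL genes were at least 7 edits from miR-3135b and 5 from miR-6131. How many mismatches the authors' mapping allowed is not given in the sources used here, and whether reads of RNY3 or RNY4 were counted under these names was not tested.

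The mRNAs of proteins that bind these RNAs were followed as the other genes of their pathways. Of 27 such genes 8 had reads in both total RNA replicates, where 21.9% of all protein-coding genes did. A read in either replicate was found for 20, and no share over all protein-coding genes was taken for that count. Such mRNAs say nothing of the proteins. Of the 3 vault proteins, only PARP4, the poly(ADP-ribose) polymerase of the particle, was read in both replicates, with 1 and 10 reads. MVP, the major vault protein that forms the shell, had 16 and 0, and TEP1, which binds vault RNA, had 0 and 2. None of the 3 thus had more than a few reads in both.

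Among the 6 Y RNA proteins 3 were read in both. YBX1, an RNA-binding protein known for sorting small RNAs into vesicles, had 1082 and 877 reads. That is 652 CPM per kilobase of exon in replicate 1 and 543 in replicate 2, by far the highest level in the lists. PUF60, a splicing factor that binds Y RNA, had 11 and 30 reads, and SSB, which encodes the La protein that binds the T run at the end of Pol III transcripts, had 2 and 4. RO60, the core protein of the Y RNA particle, had 0 and 0 reads, as did ELAVL4, a neuronal RNA-binding protein, and IFIT5, an interferon-induced one.

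Of the 7 proteins of the 7SK particle, 4 were read in both replicates, and all had a read in either. HEXIM1, the inhibitor that 7SK RNA brings to P-TEFb, had 38 and 91 reads (21.4 and 52.7 CPM per kilobase). MEPCE, the enzyme that caps 7SK RNA, had 44 and 39 reads (26.7 and 24.3 CPM per kilobase). Their means, 37.1 ± 22.1 for HEXIM1 and 25.5 ± 1.68 for MEPCE (SD, n = 2), differed by less than the spread of HEXIM1 between replicates. HEXIM2, the paralogue of HEXIM1, had 8 and 83 reads, and CDK9, the kinase of P-TEFb, had 19 and 4. LARP7, which holds the 3′ end of 7SK RNA, had 8 and 0, and the cyclins CCNT1 and CCNT2 had 0 and 2 and 0 and 11.

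None of the 11 RNase P and RNase MRP protein genes had a read in both replicates, beside the 21.9% of all protein-coding genes. Of these, 7 had a read in a single replicate, with POP1, the largest subunit, highest at 0 and 22 and RPP25 next at 0 and 12. The 4 others, POP5, RPP21, RPP30 and RPP40, had 0 and 0 reads.

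Replicates differed widely for these genes. Of the 11 partner genes whose replicates summed to 10 reads or more, 9 differed more than 2-fold between the replicates, and so did 64.5% of all protein-coding genes with that many reads. HEXIM2 was higher in replicate 2 by 3.41 on the log2 scale (95% exact counting interval 2.37 to 4.67), and CDK9 was lower there, at -2.21 (-4.22 to -0.62). YBX1 and MEPCE were the 2 within 2-fold, at -0.26 (-0.39 to -0.13) and -0.13 (-0.79 to 0.52). The intervals compare 2 libraries and carry no test of a condition.

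**Figure D5:**
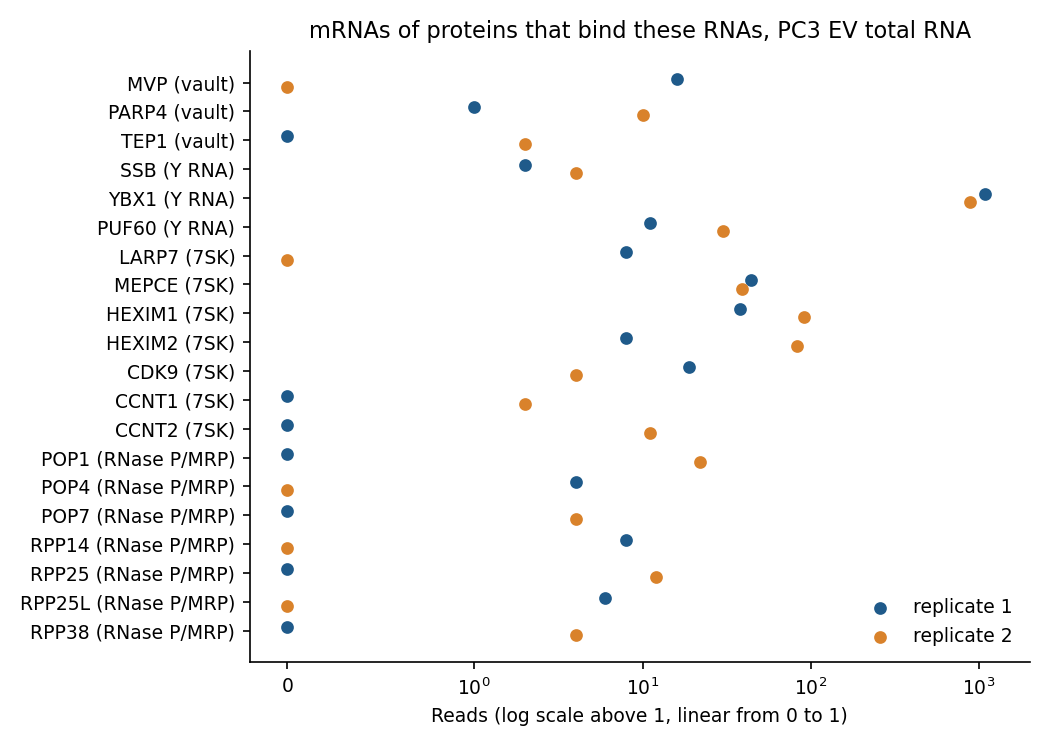
Reads in replicate 1 and replicate 2 (points, on an axis that is linear from 0 to 1 and logarithmic above) for the 20 of 27 partner genes with a read in either, with the RNA they bind in brackets. YBX1 stands apart at 1082 and 877 reads, and the RNase P and MRP genes each have a point at 0.

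As a check of the labelled source, marker genes were read in the same libraries. All 5 epithelial keratin and adhesion markers had reads in both replicates, led by KRT8 with 966 and 1088. Of 5 vesicle markers 3 were read in both (CD63, CD81 and PDCD6IP), and CD9 had 0 and 0. The 3 blood markers had 0 reads, and of the 3 osteoblast markers COL1A1 had 35 and 1.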

How the data were processed

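Total RNA and small RNA of PC3-EVs were each sequenced as 2 libraries, described as biological replicates. The total RNA tables were assigned to replicates by the sample descriptions. Per the paper's methods, the authors ran Cutadapt, SHRiMP and SAMtools to trim, map to GRCh38 and count, and the submitters' processing notes name HTSeq. The deposited values are raw read counts per Ensembl gene, and raw read counts per mature miRNA. Tool versions, strand setting and annotation release are not given in the sources used here.

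The members, lists and searches were chosen with earlier results of these data known. Named are the members, up to 3 copies a family with the most reads, partner genes read in both replicates, neighbours within 1000 bases and the 7SL genes, and others were chosen after their values were seen. Symbols and coordinates came from GENCODE release 44, which matched 56948 of 58051 identifiers. Counts were scaled to CPM of 489170 and 475942 gene counts, and a pseudocount of 0.5 reads entered the 2-fold call, which was tested on simulated data. The simulation held counting error only, and its genes had more reads than the lowest called here. It therefore does not cover the spread between these replicates. Near copies came from blastn 2.17.0, TMM factors from edgeR 4.0.16, other values from scipy 1.17.1, numpy 2.4.6 and pandas 2.3.3 (Python 3.11.15), and figures from matplotlib 3.10.9. Alternatives were other minimums, denominators and match lengths, and each replicate left out. RNY5 had no matched identifier and was left out of counts. Some planned items are not reported here.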

Additional observations from a re-analysis of the deposited data

How the results depend on the processing

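The count of members with reads, their share, their levels and the share of the 7SK and Y families on the named genes were 0 under all 53 alternatives run, among them a read in either replicate, other denominators, TMM scaling and each replicate left out. A value of 0 cannot move under a change of scale, so this says little about stability. The 8 partner genes became 20 with a read in either replicate and 4 with at least 10 reads in both, and 13 to 15 with 1 replicate left out. No share over all protein-coding genes was taken under these settings. The 3 miRNA names that share 16 bases became 0 at 18 bases, and 2 under whole-sequence matches to members with 2 edits, which was chosen after seeing the data. The order of the members and their replicate ratios under another pseudocount could not be computed with all members at 0. Their levels without the scaling by length, in CPM, were 0. No paired analysis was possible because there is 1 condition per assay and the small RNA columns carry no replicate number. Depth limits all statements to shares above 3 reads, and reads set aside before counting were not analysed here.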
